A study of Mus musculus with 4 samples.

Results

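The miR-200 and miR-141 family of the mouse was measured as 7 mature miRNAs, out of 991 mature miRNA names that had a read of 18 to 25 nt. The 7 members, fixed by name, were the 3p strands of the hairpins Mir200a, Mir200b, Mir200c, Mir141 and Mir429 and the 5p strands of Mir200a and Mir200b. Reads of that length that carried a member's name in the deposited table were summed, with each distinct sequence taken 1 time per library. The 5 hairpins lie in 2 genomic clusters, and the cluster of Mir200a, Mir200b and Mir429 (5 members) was set against the cluster of Mir200c and Mir141 (2 members).

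The libraries held small RNA from testes of mice at 16 days after birth. Wild-type mice gave 2 libraries, and mice labelled as a knockdown of Hsf5, the gene of a heat shock factor of the testis, gave 2 more. The deposited table calls the latter libraries KO, and the wording of the labels is used here. The sources used here give neither the strain, nor how the knockdown was made, nor any allele or agent that all mice shared, nor the number of animals behind a library. Small RNA reads do not measure the Hsf5 transcript, so the degree of knockdown was not checked. The labels speak of biological replicates without saying whether mice shared a litter, and p-values below therefore measure only the spread between these libraries.

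MicroRNAs guide silencing complexes to messenger RNAs, chiefly through the seed, the stretch of bases near the 5′ end that pairs with the target. The miR-200 family is best known from epithelia, where it represses the transcription factors Zeb1 and Zeb2 and so maintains E-cadherin and the epithelial state. In the male reproductive tract the family is known from the epithelium of the epididymis, and the testis itself holds germ cells, Sertoli cells and interstitial cells.

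The mature sequences show why the family is split by seed as well as by cluster, and are printed with the seed (bases 2 to 8) in capitals. They were taken from the RefSeq miRNA table of build GRCm38.p6, in which all 7 members were found.
mmu-miR-200b-3p: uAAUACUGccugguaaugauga
mmu-miR-200c-3p: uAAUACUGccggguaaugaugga
mmu-miR-429-3p: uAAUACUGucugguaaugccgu
mmu-miR-200a-3p: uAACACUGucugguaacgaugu
mmu-miR-141-3p: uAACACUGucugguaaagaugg
mmu-miR-200a-5p: cAUCUUACcggacagugcugga
mmu-miR-200b-5p: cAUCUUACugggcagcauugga
The 5 members of the 3p arm had 2 seeds. miR-200b-3p, miR-200c-3p and miR-429-3p shared AAUACUG, whereas miR-200a-3p and miR-141-3p shared AACACUG. Each seed was thus encoded in both clusters. The 5p members shared a seed of their own, AUCUUAC. miR-200a-3p and miR-141-3p had the same first 16 bases and differed at 2 positions. miR-200b-3p differed at 2 positions from miR-200c-3p and at 4 from miR-429-3p over the length they shared. Every mature sequence had 1 exact match in GRCm39, so reads of reference length can be told apart between members.

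In GRCm39 with the GENCODE M39 annotation, all 5 hairpins lay on the minus strand. Mir200b was at chr4:156140138-156140207, Mir200a at chr4:156139353-156139442 and Mir429 at chr4:156138362-156138444, with 696 and 909 bases between neighbours. All of these lay in introns of the protein-coding gene Ttll10. They also lay in the lncRNA gene Gm13648 on the same strand, Mir200b and Mir200a in an intron and Mir429 in an exon. Mir200c was at chr6:124695285-124695353, in an exon of the lncRNA gene Gm15884. Mir141 was at chr6:124694877-124694948, 337 bases away in an intron of the same gene and in an exon of Gm29008, an unclassified transcript.

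The libraries held 9260452 to 11117460 counted reads, of which 1537719 to 2231087 were miRNA reads of 18 to 25 nt. Levels are given as CPM, reads per 1000000 miRNA reads after TMM scaling. The TMM factors were 1.10, 1.12 and 1.14 in the wild-type libraries and knockdown replicate 1, in that order, and 0.712 in knockdown replicate 2, so that scaling raised the values of that library. The knockdown libraries also stood farther apart than the wild-type libraries. Over 335 miRNA names of at least 50 CPM on average, the median distance was 0.72 log2 units between the knockdown libraries and 0.21 between the wild-type libraries. Testis miRNAs were present in each library, with miR-34c-5p, a spermatocyte miRNA, between 3769 and 8855 CPM.

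No member of the family passed the test between the genotypes. edgeR's quasi-likelihood test called 0 of the 6 members tested at a Benjamini-Hochberg adjusted p of 0.05, and it called 0% of all 936 names tested. At an unadjusted p under 0.05 it called 0 members and 14 names (1.5%), and DESeq2 called 0 names, with 16 at an unadjusted p under 0.05. All 6 fitted differences were positive, with a median of 0.64 on the log2 scale against 0.01 over all names, of which 471 were higher and 465 lower. The adjusted p was 0.992 for each of the 6 members (edgeR, Benjamini-Hochberg over all names).

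**Figure D1:**
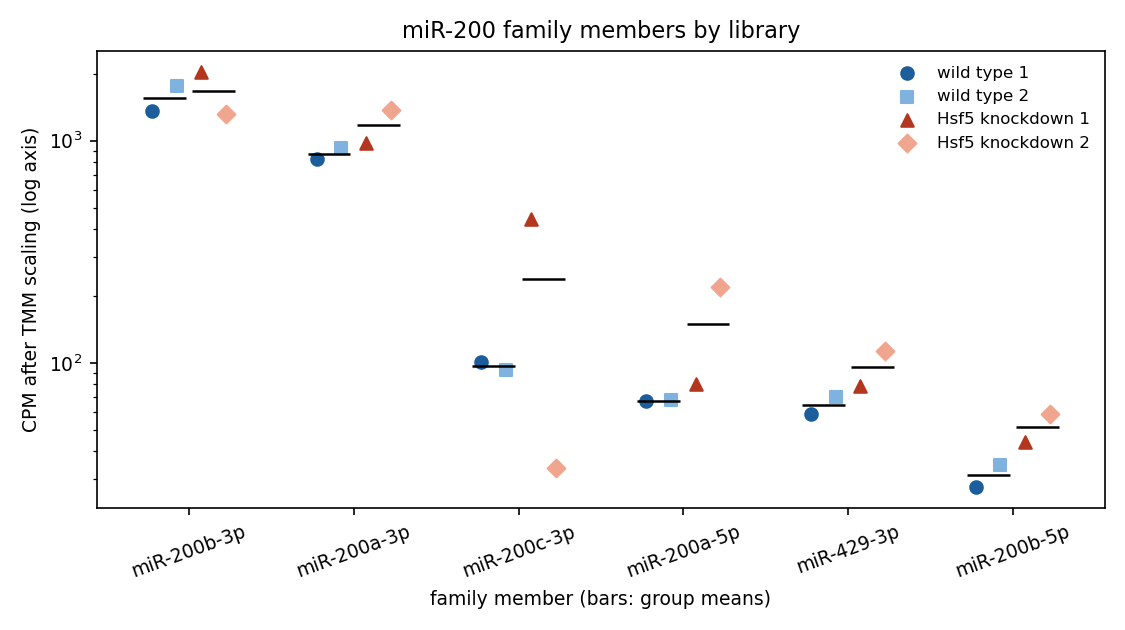
CPM after TMM scaling (log axis) of the 6 members that passed the filter, with 1 point per library and black bars at the group means. The libraries of miR-200c-3p spread from 33.5 to 444 CPM, and the knockdown libraries lie on either side of the wild-type pair.

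Among the 3p members of the chromosome 4 cluster, miR-200b-3p was the most abundant, with 13294 of the family's 24588 reads (54.1%). It stood at 1359 and 1766 CPM in wild type replicates 1 and 2 and at 2046 and 1315 CPM in knockdown replicates 1 and 2. The group means were 1562 ± 288 and 1681 ± 517 CPM (SD, n = 2 each). The knockdown libraries lay on either side of the wild-type pair, and the fitted log2 difference was 0.11 (SE 0.41).

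miR-200a-3p, which carries the other seed, held 32.6% of the family's reads. Its levels were 823 and 927 CPM in wild-type testes and 979.5 and 1367 CPM in knockdown testes. Both knockdown libraries were above both wild-type libraries on this scale, with means of 875 ± 73.5 and 1173 ± 274 CPM (SD, n = 2 each) and a log2 difference of 0.42 (SE 0.37). Without TMM factors the groups overlapped, at 907 and 1041 reads per 1000000 miRNA reads in wild-type testes and 1112 and 973 in knockdown testes. In whole testis, a larger share of cells that express a miRNA and more of it per cell cannot be told apart.

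miR-429-3p was less abundant by more than an order of magnitude than miR-200b-3p, with which it shares the seed. It had 59.0 and 70.1 CPM in wild-type testes and 78.4 and 113 CPM in knockdown testes, a log2 difference of 0.57 (SE 0.40). The groups did not overlap.

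The 5p strands, the less abundant arms of these hairpins, followed the same order. miR-200a-5p had 67.5 and 67.7 CPM in wild-type testes and 80.1 and 219.6 CPM in knockdown testes, with means of 67.6 ± 0.144 and 149.8 ± 98.7 CPM (SD, n = 2 each) and a log2 difference of 1.14 (SE 0.56). Most of that difference lay in knockdown replicate 2. miR-200b-5p had 27.7 and 34.7 CPM in wild-type testes and 43.9 and 58.8 CPM in knockdown testes, a log2 difference of 0.72 (SE 0.46). Without knockdown replicate 1, the log2 difference of miR-200a-5p was 1.74, in a fit in which the lone knockdown library was taken to vary like the wild type.

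Both knockdown libraries were thus above both wild-type libraries for 4 of the 6 tested members, all from the chromosome 4 cluster, and 11.3% of all names were ordered in this way. These members come from neighbouring hairpins on the same strand and include both arms of Mir200a. They cannot be taken as independent observations, and their count was not tested against that share. The reverse order held for 0 members and 17.7% of names. Per 1000000 miRNA reads without TMM factors, 3 members were above (6.3% of names) and 0 below (23.3%). Per 1000000 counted reads, 4 members were above (9.94% of names) and 0 below (11.9%). Dropping the TMM factors moved the median log2 difference of all names to -0.24. miR-200b-3p then stood at -0.09, which is above that median.

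In the chromosome 6 cluster, miR-200c-3p had 247 and 161 reads in wild-type testes and 1082 and 49 reads in knockdown testes. These were 100.5 and 93.2 CPM in wild-type testes and 444 and 33.5 CPM in knockdown testes, so that knockdown replicate 1 was the highest and knockdown replicate 2 the lowest of the libraries. The means were 96.9 ± 5.15 and 239 ± 291 CPM (SD, n = 2 each), with a log2 difference of 1.30 (SE 1.25). That mean difference was smaller than the distance between the knockdown libraries, which was 3.69 log2 units against 0.11 between the wild-type libraries.

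The sign of the difference for miR-200c-3p depended on which knockdown library was left out. Without knockdown replicate 2 this miRNA was higher in knockdown testes by 2.25 log2 units. Without knockdown replicate 1 the difference was -1.48. Among the 335 names of at least 50 CPM, 8 names (miR-200c-3p counted) were at least as far apart between the knockdown libraries in that direction and 15 in either direction. Over all libraries its log2 range was 3.69, which 5.66% of the 936 names reached, whereas the other tested members had ranges of 0.64 to 1.69 and the median of all names was 1.22.

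miR-141-3p, encoded beside Mir200c, was close to the limit of detection. It had 2 and 0 reads in wild-type testes and 4 and 0 reads in knockdown testes and did not pass the filter of 1 CPM in 2 libraries. Its 6 reads were 0.388% of the 1545 reads of its cluster (Wilson 95% interval 0.178 to 0.845%). In wild type replicate 2 and knockdown replicate 2, where the count was 0, the upper Wilson limits were 2.33 and 7.27%, and 3 counts of the cluster's reads would be 1.86 and 6.12%. These limits cover counting error only. Nearly all reads with the AACACUG seed were therefore miR-200a-3p from the other cluster.

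The remaining arms had few or no reads. miR-141-5p had 1 read, and miR-200c-5p and miR-429-5p had 0, in the 4 libraries together. Among names of whole hairpins, mir-200a had 22 and 14 reads in wild-type testes and 9 and 33 in knockdown testes. The hairpin names mir-200b, mir-141, mir-200c and mir-429 had 36, 6, 1 and 0 reads in all.

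Within each library the chromosome 4 cluster held most of the family. Its 5 members had 95.8 and 96.8% of the family's reads in wild-type testes and 87.9 and 98.9% in knockdown testes. The ratio of its reads to those of the chromosome 6 cluster was 23.1 and 30.7 in wild-type testes and 7.24 and 91.7 in knockdown testes. On the log2 scale the means were 4.73 ± 0.29 and 4.69 ± 2.59 (SD, n = 2 each), a difference of -0.05 (exact two-sided permutation test, p = 1). With 2 libraries against 2 there are 6 assignments and the smallest p possible is 0.33. The groups had nearly the same mean because the knockdown libraries lay on either side of the wild-type pair.

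**Figure D2:**
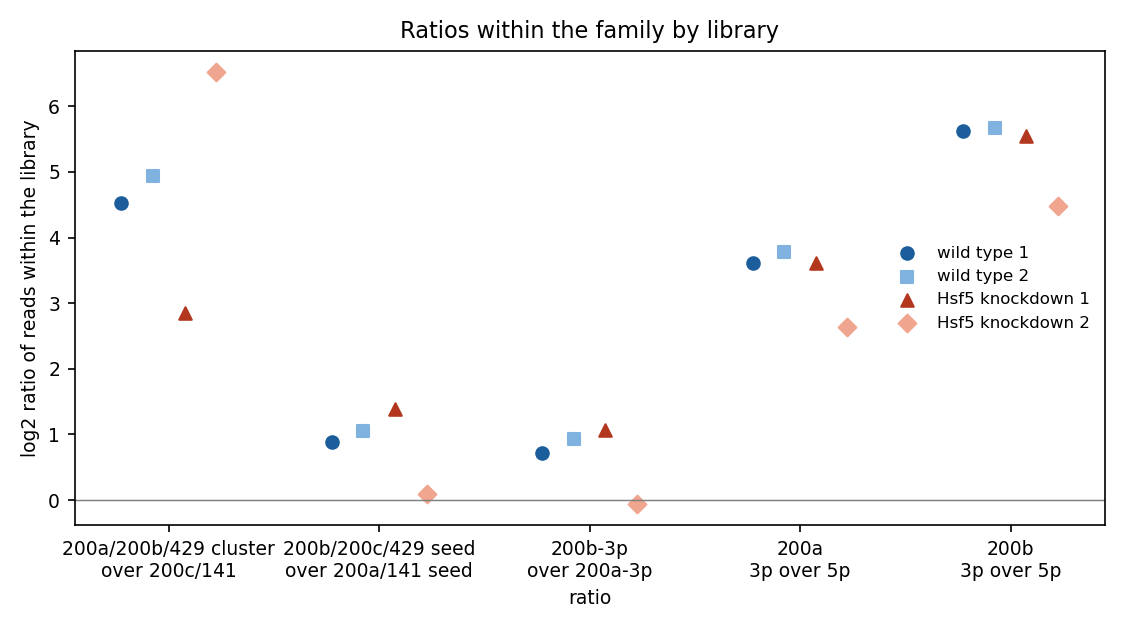
Log2 ratios of reads within each library, with 1 point per library for the ratio of clusters, the ratio of seeds, miR-200b-3p over miR-200a-3p and the 3p over the 5p arm of Mir200a and of Mir200b. Knockdown replicate 2 is the lowest library in each ratio but that of the clusters, in which it is the highest.

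The seeds were split more evenly than the clusters. Reads with the AAUACUG seed (miR-200b-3p, miR-200c-3p and miR-429-3p) exceeded those with the AACACUG seed 1.84 and 2.08 times in wild-type testes and 2.62 and 1.07 times in knockdown testes (log2 difference -0.23, exact permutation p = 1). Most of the low value in knockdown replicate 2 came from the chromosome 4 cluster, in which miR-200b-3p over miR-200a-3p was 1.65 and 1.91 in wild-type testes and 2.09 and 0.962 in knockdown testes. miR-200b-3p over miR-429-3p moved likewise, at 23.0 and 25.2 in wild-type testes and 26.1 and 11.6 in knockdown testes. In contrast, miR-200a-3p over miR-429-3p lay between 12.1 and 13.95 in all libraries. In knockdown replicate 2 it was therefore miR-200b-3p that stood low against both neighbours of its cluster.

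The 3p arm exceeded the 5p arm in both hairpins with 2 measured arms. For Mir200a the ratio was 12.2 and 13.7 in wild-type testes and 12.2 and 6.22 in knockdown testes. For Mir200b it was 49.1 and 50.8 in wild-type testes and 46.6 and 22.3 in knockdown testes. Wild type and knockdown replicate 1 were close in both hairpins, and knockdown replicate 2 was lower. For both hairpins together the log2 difference was -0.68 (exact permutation p = 0.667), and it was -1.35 without knockdown replicate 1 and -0.0086 without knockdown replicate 2. Including the family's share of mature miRNA reads and the share of reads with the reference start, 5 quantities were compared in this way, and all had a Benjamini-Hochberg adjusted p of 1.

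A shift of arms in knockdown replicate 2 was common in that library. Over 82 other hairpins with at least 100 reads of each arm, the 3p over 5p ratio was below all other libraries in 38 (46.3%) and above them in 31 (37.8%). The log2 change of that library against the mean of the others was -1.03 for Mir200a and -1.13 for Mir200b, and the other hairpins had quartiles of -1.15 and 0.76.

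The family as a whole took 0.300 and 0.367% of mature miRNA reads in wild-type testes and 0.459 and 0.245% in knockdown testes. By this share the knockdown libraries again lay on either side of the wild type. After TMM scaling they did not, with a summed level of 2437 and 2958.5 CPM in wild-type testes and 3674 and 3107 CPM in knockdown testes. The miRNAs whose pattern over the 4 libraries was nearest to the summed family were miR-15b-5p, the hairpin name mir-872 and miR-547-3p. Their distances, taken between centred log2 CPM, were 0.196, 0.199 and 0.215, and 166 of the 259 candidates of at least 100 CPM lay within a distance of 1, so that the flat pattern was shared with many names.

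The 5′ end of the 3p members, which sets the seed, was nearly uniform among reads that carried their names. Reads that started at the reference base were 99.9 and 99.7% of those named as 3p members in wild-type testes and 99.8 and 99.7% in knockdown testes. With reads matched by sequence, whatever their name, the shares were 97.3 and 97.7% in wild-type testes and 98.4 and 97.6% in knockdown testes. Of miR-200b-3p matched in this way, 4.16 and 3.17% of reads started at base 2 in wild-type testes and 2.50 and 4.43% in knockdown testes, which shifts the seed by 1 base. The 3′ end varied more, and it separated the members. The most abundant form of miR-200a-3p was not the reference but 1 base shorter, as the following pair shows, with the last base of the reference absent from the first.
miR-200a-3p, 1 base shorter: taacactgtctggtaacgatg
miR-200a-3p, reference: taacactgtctggtaacgatgt
The shorter form had 5848 reads (73.0% of miR-200a-3p) and the reference 2041 (25.5%). For miR-200b-3p the order was the opposite, with 8533 reads of the reference (64.2%) and 4586 of the form that lacks the last base. Among reads that carried their names, miR-200c-3p was the most uniform of the 3p members with over 100 reads. It had 1255 reads of its reference of 23 nt (81.5%). That share leaves out reads under other names, which were 18.2% of miR-200c-3p matched by sequence, so the ranking holds for named reads only.

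Knockdown replicate 2 differed from the other libraries at these ends, and in opposite directions for the main members. The 1 base shorter form of miR-200a-3p had 70.9 and 67.1% of its reads in wild-type testes and 68.5% in knockdown replicate 1, but 85.3% (Wilson 95% interval 83.7 to 86.8%) in knockdown replicate 2. For miR-200b-3p the shares were 35.8 and 35.5% in wild-type testes, 37.2% in knockdown replicate 1 and 23.7% (interval 21.8 to 25.6%) in knockdown replicate 2. For miR-429-3p they were 33.1 and 43.8% in wild-type testes and 44.0 and 20% in knockdown testes. Knockdown replicate 1 was within 2 points of a wild-type library in each of these.

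**Figure D3:**
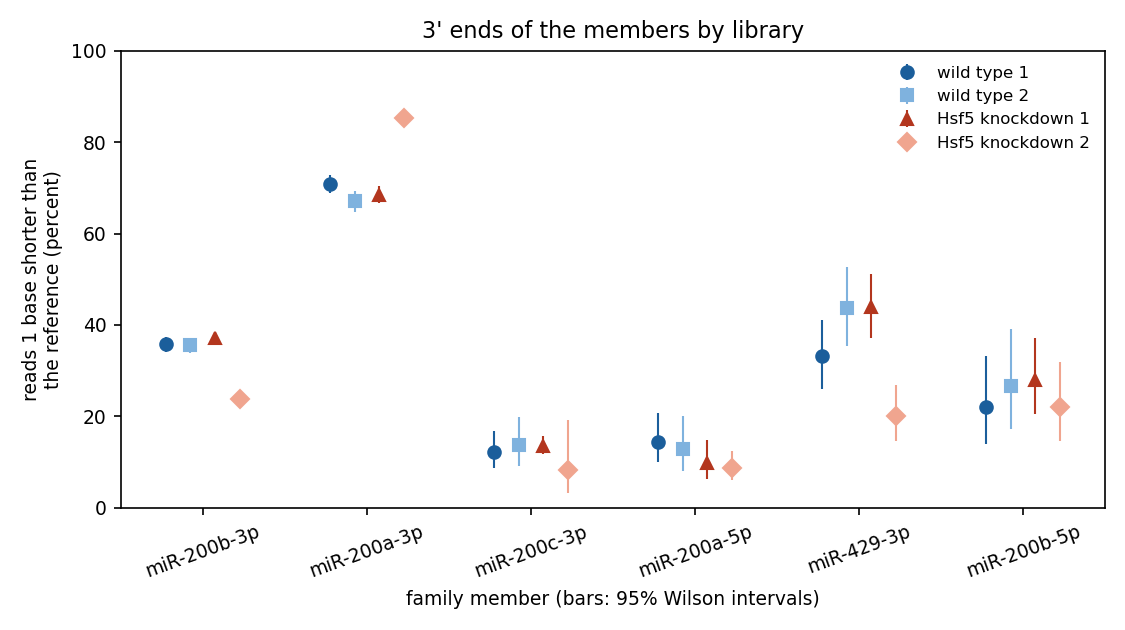
Percent of each member's reads that are 1 base shorter than the reference at the 3′ end, with 1 point per library and 95% Wilson intervals for counting error. In knockdown replicate 2 the share of miR-200a-3p is 85.3%, above the other libraries, and those of miR-200b-3p (23.7%) and miR-429-3p (20%) are below them.

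For a comparison with other miRNAs, the share of the 1 base shorter form was taken over that form and the reference alone. Over 140 other miRNAs with at least 1000 reads, this share in knockdown replicate 2 lay outside the other libraries in 88 (62.9%). The median absolute change against the mean of the other libraries was 2.59 points. In 2 miRNAs the change was at least as large as for miR-200b-3p. These were miR-125b-1-3p (30.4 points) and miR-186-5p (13.4 points), named after their values were seen. The largest changes of members were 16.3 points for miR-200a-3p, -12.7 for miR-200b-3p and -21.5 for miR-429-3p, which had fewer than 1000 reads. Those of miR-200c-3p, miR-200a-5p and miR-200b-5p were smaller, at -5.62, -3.85 and -2.15 points, and both 5p members had fewer than 1000 reads. What these shifts have to do with the knockdown was not tested, since 1 library of the group showed them.

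Some reads of the family stood in the deposited table under names that are not miRNAs. When reads were matched to the hairpins by sequence, 1638 reads of the 7 members (6.22%) were named as transposons or genes. They numbered 412 and 309 in wild-type testes and 559 and 358 in knockdown testes. Of these, 1105 were named as LINE elements, 377 as LTR elements, 147 as genes and 9 as SINE elements. The most abundant form of miR-200c-3p and of miR-200a-5p and the 3 most abundant of miR-200b-3p each ended in an added 3′ base (in capitals) that the hairpin does not hold, and 1 of them started at base 2 of the miRNA.
miR-200b-3p plus A, named Lx6: taatactgcctggtaatgatgaA
miR-200b-3p from base 2, plus T, named Lx8: aatactgcctggtaatgatgacT
miR-200b-3p plus T, named MMERVK9E_I: taatactgcctggtaatgatgaT
miR-200c-3p plus T, named Lx2: taatactgccgggtaatgatggaT
miR-200a-5p plus A, named MMERVK10D3_I: catcttaccggacagtgctggaA
The form of miR-200b-3p with an added A had 61 and 44 reads in wild-type testes and 81 and 106 in knockdown testes. The form of miR-200b-3p from base 2 had 91 and 61 reads in wild-type testes and 73 and 38 in knockdown testes. Not all forms carried such a base, since another from base 2 (98 reads) ended in the next base of the hairpin. The form of miR-200c-3p with an added T had 53 and 26 reads in wild-type testes and 107 and 20 in knockdown testes, the order of its miRNA. Of the 21 sequences made of a member and 1 base other than the next base of its hairpin, 9 had reads under other names. None of the 21 had an exact match anywhere in GRCm39, on either strand. How the authors matched reads to these elements was not given in their labels.

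**Figure D4:**
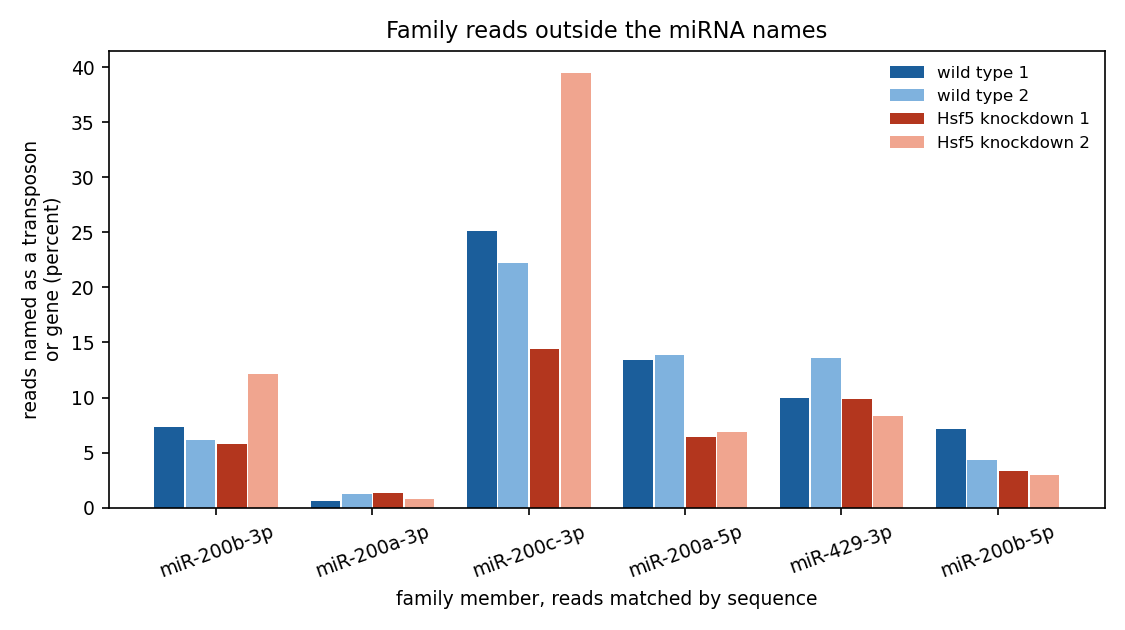
Percent of each member's reads, matched by sequence, that carry the name of a transposon or gene, with 1 bar per library. The share of miR-200c-3p is 39.5% in knockdown replicate 2 and 14.4% in knockdown replicate 1, and that of miR-200a-3p is below 2% in all libraries.

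The share of such names differed between members and libraries. For miR-200c-3p it was 25.2 and 22.2% in wild-type testes and 14.4 and 39.5% in knockdown testes, so counting by name understated this member most where it was lowest. For miR-200b-3p it was 7.32 and 6.15% in wild-type testes and 5.79 and 12.2% in knockdown testes. For miR-200a-3p it was 0.639 to 1.32%.

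Most of these reads were tailed forms, and their share was computed against the reference form. An added A or U was found on 25.4 and 21.0% of miR-200c-3p in wild-type testes, on 15.6% (Wilson 95% interval 13.5 to 17.96%) in knockdown replicate 1 and on 37.5% (27.2 to 49.0%) in knockdown replicate 2. For miR-200b-3p the shares were 4.18 and 4.04% in wild-type testes, 4.60% in knockdown replicate 1 and 9.86% (8.49 to 11.4%) in knockdown replicate 2. The pooled share over 123 other miRNAs was 5.36 and 5.20% in wild-type testes and 4.97 and 5.14% in knockdown testes, and knockdown replicate 2 was above all other libraries in 27.6% of them. These members were most tailed in knockdown replicate 2, whereas the pooled share of the other miRNAs lay within its range over the other libraries. Other members did not follow that order. miR-200a-3p had 0 reads of its reference form with an added A, and U is the next base of its hairpin. Its 1 base shorter form with an added A had 35 reads, which this share leaves out. For miR-429-3p the share was lowest in that library, at 11.5 and 9.46% in wild-type testes and 9.35 and 9.03% in knockdown testes. For miR-200a-5p it was 16.5 and 16.2% in wild-type testes and 7.03 and 7.69% in knockdown testes, and for miR-200b-5p it was at most 5.77%, with 0 tailed reads in knockdown replicate 2. For miR-200c-3p the interval of that library overlapped those of both wild-type libraries (20.7 to 30.9% and 15.5 to 27.7%).

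Forms longer than the reference by the next base of the hairpin limit these comparisons. Starting at the reference base, they had 0 reads for miR-200a-3p, miR-200b-3p and miR-200c-3p and 1 for miR-429-3p. For miR-200a-5p they had 74 reads and for miR-200b-5p 30, both under hairpin names. Forms of miR-200b-3p from base 2 did hold the next base, with 98 reads where it came last, 263 where a T followed and 79 where an A followed. Across the table, longer forms from the reference start had 37218 reads over 55 other 3p miRNAs, 23 of which had 0. Over 71 other 5p miRNAs they had 299290 reads, and 2 of these miRNAs had 0. A count of 0 for such a form of a 3p member therefore gives no level. The arm ratios of Mir200a and Mir200b, taken from mature names, compare reads of both arms up to the annotated end.

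Other epithelial miRNAs were set beside the family, from a list of 7 of which all were tested and 0 were called (median log2 difference 0.23, against 0.01 over all names). Their summed level was 2332 and 2737 CPM in wild-type testes and 2783 and 4029.5 CPM in knockdown testes. miR-205-5p, a miRNA of stratified and glandular epithelia, had the same high and low libraries as miR-200c-3p. It had 38 and 31 reads in wild-type testes and 198 and 3 in knockdown testes, which are 15.5 and 17.9 CPM and 81.3 and 2.05 CPM. miR-203-3p, a miRNA of keratinocytes, did not share that order, at 1597 and 1737 CPM in wild-type testes and 1811 and 2093 CPM in knockdown testes. miR-375-3p, a miRNA of endocrine and secretory epithelia, had 87.9 and 288 CPM in wild-type testes and 122 and 302 CPM in knockdown testes. miR-192-5p, highest in knockdown replicate 2, had 341 and 355 CPM in wild-type testes and 349 and 801 CPM in knockdown testes. miR-184-3p was highest there too, at 194 and 146 CPM in wild-type testes and 258 and 713 CPM in knockdown testes. miR-194-5p stood at 86.7 and 166 CPM in wild-type testes and 147 and 114 CPM in knockdown testes. miR-31-5p, lowest in knockdown replicate 2, had 10.6 and 26.6 CPM in wild-type testes and 15.6 and 4.10 CPM in knockdown testes. What part the amount of epithelial RNA in a library had in the values of miR-200c-3p was not tested.

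By distance over the libraries, miR-205-5p was at 0.932 from miR-200c-3p. It was compared after its values were seen and lies below the level of 100 CPM that the other comparisons required. Among the 259 candidates above that level, the nearest to miR-200c-3p were miR-878-3p (1.30), miR-339-5p (1.44) and miR-574-3p (1.52), and 0 lay within a distance of 1. These too were looked up after the pattern of miR-200c-3p was seen.

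Lists of miRNAs of other cells in the testis held no member that passed the test. Of the spermatocyte miRNAs 3 of 5 were tested, with summed levels of 4956 and 8189 CPM in wild-type testes and 6535 and 9620 CPM in knockdown testes. Most of these sums was miR-34c-5p, and the other tested members did not share its order. miR-34b-3p, lowest in knockdown replicate 2, had 1132 and 1908 CPM in wild-type testes and 1647 and 698 CPM in knockdown testes. miR-449a-5p had 54.5 and 113 CPM in wild-type testes and 124 and 65.7 CPM in knockdown testes. All 7 mesenchymal and vessel miRNAs were tested. Their summed levels were 46854 and 45684 CPM in wild-type testes and 39299 and 64425 CPM in knockdown testes. The most abundant of them, miR-143-3p, had 23912 and 28037 CPM in wild-type testes and 25751 and 52197.5 CPM in knockdown testes. In the fit 2 were higher and 5 lower, and 4 were lower in both knockdown libraries than in both wild-type libraries (17.7% of all names were). Among these was miR-199a-3p, at 5943 and 3245 CPM in wild-type testes and 250 and 1540 CPM in knockdown testes. The name miR-199b-3p had 0 and 4159 CPM in wild-type testes and 7403 and 2718 CPM in knockdown testes. The names of 156 miRNA sequences differed between libraries, and whether reads moved between these 2 names was not tested. The low values of miR-199a-3p, and its place among those 4, therefore hold for that name only. The lists of spermatogonia, Sertoli cells and blood had 5, 2 and 4 members tested, with median log2 differences of -0.13, -0.17 and 0.14.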

How the data were processed

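Small RNA of whole testes was ligated to adaptors and size-selected for inserts of 18 to 40 bases, per the labels' protocol. The deposited table holds raw read counts per distinct sequence, library and annotation, made by the authors and not normalized. The submitters' processing notes name cutadapt and mm39, with no role stated. For the aligner, its mismatches and the miRNA annotation, the entry is: not given in the sources used here.

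Counts of 18 to 25 nt were summed by miRNA name, mature and hairpin names apart, each sequence 1 time per library. The 936 of 1544 names with at least 1 CPM in 2 libraries were tested with edgeR 4.0.16 (quasi-likelihood, robust, TMM) and Benjamini-Hochberg adjustment at 0.05, in R 4.3.3. The common biological coefficient of variation was 0.603. SE values were derived from the F statistic. DESeq2 1.42.0 was an alternative. Ratios were compared over libraries by exact two-sided permutation, with scipy 1.17.1. The fit was tested on simulated data, where at the spread of these libraries it missed large changes, so a count of 0 calls does not show equal levels. Counts over the members differed beyond sampling noise within each group (chi-square per degree of freedom 3.97 for wild type, 174 for knockdown), so no library was a copy of another.

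For reads matched by sequence, the start could differ by up to 2 bases, 17 bases had to match the GRCm39 hairpin, and up to 3 added bases were allowed. This count was also used as an alternative chosen after seeing the data. Wilson intervals cover counting error only.

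The members and lists were chosen with earlier results of these data known. Named were all members, the other arms and names of their hairpins, their most abundant sequences, the 3 miRNAs nearest to the summed family among those of at least 100 CPM, and members of the lists. Alternatives changed the scaling, the filter, the lengths, the naming and the libraries.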

Additional observations from a re-analysis of the deposited data

Results flagged for a closer look

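Reads of the family outside the main count were 1638 over the 4 libraries, found under names of transposons and genes when reads were matched by sequence. They lay outside the measurement used for the comparisons, which takes miRNA names only. Counting them with the members left the number of members called at 0, and their role in the shares of LINE or LTR reads of these libraries was not tested.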

How the results depend on the processing

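miR-200a-3p, miR-429-3p and miR-200b-5p stayed positive and uncalled under all 13 alternatives each, as did miR-200a-5p under 12, miR-200b-3p under 11 and miR-200c-3p under 11. miR-200b-3p turned to -0.0948 without TMM factors and to -0.20 without knockdown replicate 1. Leaving out each library in turn gave log2 differences of 0.22 to 0.69 for miR-200a-3p, 0.33 to 0.85 for miR-429-3p, 0.55 to 0.96 for miR-200b-5p, -0.20 to 0.44 for miR-200b-3p, -1.48 to 2.25 for miR-200c-3p and 0.30 to 1.74 for miR-200a-5p. It gave 0 to 1 members called (miR-200a-5p without knockdown replicate 1, miR-200c-3p without knockdown replicate 2) and 0 to 53 names, with 53 without knockdown replicate 1, 4 without wild type replicate 2 and 4 without knockdown replicate 2. Without the low-count filter 2 names were called, both lower.

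Leaving out each library also gave differences of -1.88 to 1.78 for the cluster ratio (0.16 without wild type replicate 2), -0.87 to 0.42 for the seed ratio and -1.35 to -0.0086 for the arm ratio (log2 scale), -0.0880 to 0.126 points for the family's share (-0.0144 without wild type replicate 1) and -0.0929 to 0.0722 points for the share of reference starts (0.0480 without knockdown replicate 2). With each distinct sequence counted 1 time the ratio of clusters, the ratio of seeds and both shares became 0.39, 0.30, -0.0222 and 5.24. With reads matched by sequence the share of reference starts differed by 0.458 points. The cause of these changes was not tested.

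With the replicate number as a replicate block, 0 members and 0 names were called and miR-200c-3p was at 0.37. The labels do not say that a number marks a shared litter or day, and with 2 pairs (correlation of deviations 0.247) the samples share only a number.

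The limits are 2 libraries per group, their spread, and the few reads of miR-141-3p and of the 5p arms of Mir200c, Mir141 and Mir429, which were too rare to compare.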
